A study of Mus musculus with 12 samples.

Results

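The difference between 2 mouse genotypes in the cardiac transcript response to ischemic preconditioning (IP) was estimated for every gene, as (knockout IP minus knockout control) minus (wild-type IP minus wild-type control). All 12 arrays of the study entered the estimate, with 3 arrays in each of the 4 groups, and 14044 genes were tested, each represented by 1 of the 45037 probe sets. The tissue was the area at risk of the left ventricle of male mice of the BL6/C57 strain aged 12 weeks. The knockout mice, labelled A2BAR-/-, lack the adenosine A2B receptor and are labelled with the same background. IP hearts received 4 cycles of 5 min of ischemia, each followed by 5 min of reperfusion, and then 2 h of reperfusion in situ. The controls are called untreated in one label and sham operated in another. One label has the wild-type mice ordered from a supplier and another has them as littermates of the knockout mice, which were bred in house. A shared background is therefore not settled, and neither is whether IP minus control also holds the effect of surgery.

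Ischemic preconditioning is the protection of the heart against a long ischemia by earlier short ones. Ischemic tissue releases ATP and AMP, which the ectonucleotidases Entpd1 and Nt5e convert to adenosine, and the A2B receptor, encoded by Adora2b, couples adenosine to the cAMP pathway. cAMP signalling acts on transcription through the cAMP response element and can induce the clock gene Per1. In the heart the circadian clock is a feedback loop in which Clock and Arntl drive the Per, Cry, Nr1d and PAR-bZIP genes (Dbp, Tef and Hlf), whose products feed back on the loop or on its outputs.

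Levels below are log2(signal + 16) and differences are on the same scale, so that 1 unit is a 2-fold ratio of signal plus 16. Errors are standard errors (SE) of limma's fit over all arrays unless another is named. A positive difference between genotypes means that IP minus control was higher in the knockout. Median signals per array ranged from 66.52 to 81.14 units and the total signal from 35488398 to 37455385 units, and the lowest rank correlation of an array with another of its group was 0.9079. The third wild-type control array has no value for 1425 probe sets, so 852 genes rest on 11 arrays, among them Ramp1, Cox6a2, Wee1, Per2, Egln2, Ccl6, Nr4a1, Nr1d2 and Rcan1 of those named below. Whether each array holds its own animal is not stated in the labels, and p-values therefore cover only the spread between these samples. All 22 genes of a cardiomyocyte list were bright enough to be tested, with list means between 14.78 and 14.96 on the 12 arrays. Of 6 atrial genes, only Myl4 and Nppa were.

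No gene passed the test of the difference between genotypes. With limma and Benjamini-Hochberg adjustment 0 of 14044 genes (0%) had an adjusted p below 0.05, and the smallest adjusted p was 0.325. At an unadjusted p below 0.05 there were 1105 genes (7.87%), of which 458 (3.26%) had a higher and 647 (4.61%) a lower IP effect in the knockout. That split depended on the scaling of the arrays: 592 were higher and 420 lower after quantile normalization, and 652 were higher and 342 lower with each array centred on its median. The median difference over all genes was -0.03, and it was 0.01 and 0.03 with those scalings. The authors' deposited table has 379 of the 45037 probe sets (0.842%) with a decision other than 0 for the same contrast, 275 higher and 104 lower. The p-values in that table are those of an F test over all groups, so its decisions need not share the threshold used here. With the log ratio of 3 prime to 5 prime Actb control probe sets as a covariate, 2 genes passed in limma: the clock gene Per2 (difference -5.04, adjusted p = 0.0201) and Socs3, the feedback inhibitor of interleukin-6 signalling (difference 1.70, adjusted p = 0.0212). All differences in IP effect given from here on are estimates that did not pass.

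Most estimates lay within the width of their own intervals. The middle 50% of differences lay between -0.22 and 0.17, the middle 95% between -0.88 and 0.77, and the extremes were -3.31 for the clock output gene Dbp and 2.93. The median SE was 0.241, and the median gene's 95% interval extended 0.516 to each side. For 9432 genes (67.2%) the whole interval lay within 1 log2 unit of 0. For the other 4612 genes it reached beyond, so their intervals hold differences of 2-fold or more. There were 411 genes (2.93%) with an estimate beyond 1 log2 unit, 167 above and 244 below, and 204 of them had an unadjusted p below 0.05.

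**Figure D1:**
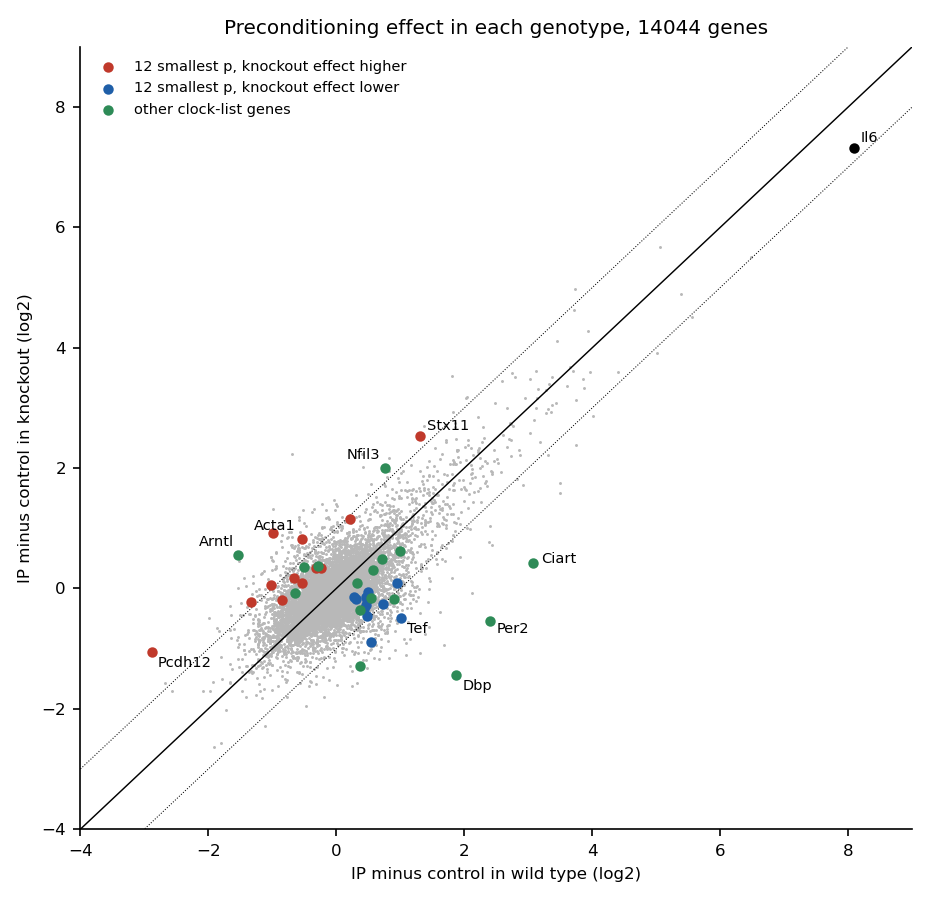
Each grey point is 1 of 14044 genes, with IP minus control in wild type on the x axis and in knockout on the y axis, both in log2 units. The solid line marks equal effects, the dotted lines a difference of 1, and the coloured points the 12 genes with the smallest p in each direction and the other clock-list genes. Il6 lies at 8.10 and 7.32, near the line, and Dbp, Per2 and Ciart lie below it, with differences of -3.31, -2.95 and -2.65.

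Both genotypes responded to IP, and most genes called in both moved the same way. In wild-type hearts 918 genes (6.54%) rose and 1410 (10.04%) fell, and in knockout hearts 677 (4.82%) rose and 1028 (7.32%) fell (limma, adjusted p below 0.05). Median centring changed the wild-type split to 709 risen and 1887 fallen genes, and the knockout split to 644 and 965. The 1116 genes called in both are 47.9% of the wild-type calls and 65.5% of the knockout calls, and 1114 of them had 1 direction. The wild-type count was 1420 without wild-type IP array 1, and the knockout count was 948 without knockout IP array 3, 1097 without knockout control array 3 and 1088 with the Actb covariate. The 2 effects share no array. Across genes, which are not independent replicates, they correlated with Pearson's r of 0.709 and Spearman's rho of 0.547. Among the genes called in both, the 518 that rose in wild type had a median difference of -0.006 and the 598 that fell 0.010. Choosing genes called in both favours like effects, so these medians do not measure how equal the responses were. Genes called in a single genotype are not in them.

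The genes with the largest mean IP effects moved in both genotypes, which a ranking on the mean of the 2 effects favours. Il6, the inflammatory cytokine, read 5.32, 4.87 and 5.74 on the wild-type control arrays and 13.24, 13.41 and 13.58 on the wild-type IP arrays. In knockout hearts it read 5.98, 5.23 and 7.34 in controls and 13.11, 13.63 and 13.77 after IP. It rose by 8.10 ± 0.38 and 7.32 ± 0.38, and the difference of -0.78 ± 0.53 had a 95% interval from -1.92 to 0.36. On the linear signal scale that difference has the opposite sign. Differences were -0.97 ± 0.68 for the neutrophil chemokine Cxcl2, -1.05 ± 0.48 for Cxcl5, another such chemokine, -0.50 ± 0.31 for the stress transcription factor Atf3 and 0.61 ± 0.52 for the pentraxin Ptx3, all of which rose in both genotypes. The largest falls by mean effect included Aplnr, the apelin receptor, at -2.68 ± 0.33 in wild type and -1.57 ± 0.33 in knockout, and G0s2, an inhibitor of triglyceride breakdown, at -1.81 ± 0.26 and -2.56 ± 0.26. The immediate-early gene Egr3 stood at -1.91 ± 0.41 and -2.64 ± 0.41, and the mesothelial gene Upk3b at -2.57 ± 0.49 and -1.71 ± 0.49. The knockout value of Upk3b lost its call under 7 of 26 alternative settings. The endothelial gene Pcdh12, described below, is also among the largest falls, and its knockout call was lost under 15.

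The 12 genes with the smallest p in each direction follow, none of them past the threshold. The smallest p belonged to Tmx1, a thioredoxin-related protein of the endoplasmic reticulum membrane. It read 12.43, 12.52 and 12.46 in wild-type controls, 12.84, 13.05 and 12.93 in wild-type IP, 12.36, 12.36 and 12.71 in knockout controls and 12.12, 12.24 and 12.22 in knockout IP hearts. Every wild-type IP array lay above the wild-type controls and every knockout IP array below the knockout controls. The difference was -0.75 ± 0.13 (95% interval -1.03 to -0.48, limma adjusted p = 0.325). Between the genotypes Tmx1 differed by 0.01 ± 0.09 in controls and was lower in the knockout by -0.75 ± 0.09 after IP (limma adjusted p = 0.00227).

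Only Parn, a poly(A)-specific ribonuclease, and Sugp1, a splicing factor, were called in both genotypes with opposite directions. Parn read 8.47, 8.62 and 8.48 in wild-type controls and 9.03, 8.88 and 9.09 after IP, against 9.05, 8.86 and 8.96 in knockout controls and 8.59, 8.36 and 8.53 after IP. The groups within each genotype did not overlap, and the wild-type IP and knockout control arrays lay together at the higher level. Its IP effect was 0.48 ± 0.12 in wild type and -0.46 ± 0.12 in knockout. Sugp1 had effects of 0.43 ± 0.10 and -0.33 ± 0.10. The wild-type call of Parn was lost under 3 alternative settings and its knockout call under 6, while the knockout call of Sugp1 was lost under 19. The differences were -0.94 ± 0.18 and -0.76 ± 0.15, each with an adjusted p of 0.325.

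**Figure D2:**
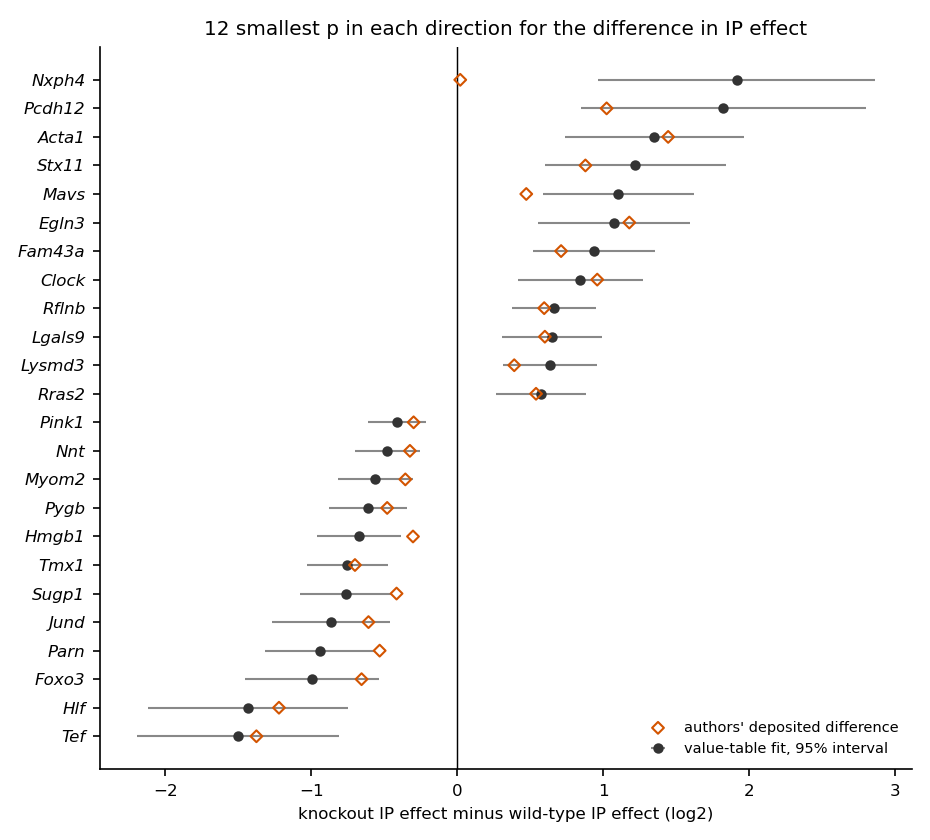
For the 12 genes with the smallest p in each direction, black points give the difference in IP effect between knockout and wild type in log2 units with its 95% interval, and open diamonds the authors' deposited difference for the same probe set. The intervals exclude 0 before adjustment, the adjusted p is 0.325 or more for each, and the diamond of Nxph4 lies at 0.02 against 1.92 here.

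Among the genes with a higher IP effect in the knockout, Acta1, the skeletal alpha-actin that hypertrophic ventricle also uses, read 14.06, 13.87 and 13.96 in wild-type controls and 12.82, 13.79 and 13.69 after IP. In the knockout it read 12.92, 13.30 and 12.98 in controls and 14.09, 13.52 and 14.03 after IP. Wild-type IP arrays lay below their controls and knockout IP arrays above theirs, and the knockout controls lay below the wild-type controls. The effects were -0.53 ± 0.20 and 0.82 ± 0.20, and the difference was 1.35 ± 0.29. The knockout rise was lost under 8 alternative settings. Egln3, a prolyl hydroxylase that marks hypoxia-inducible factors for degradation, read 11.96, 11.91 and 12.19 in wild-type controls and 11.03, 11.40 and 10.55 after IP, a fall of -1.03 ± 0.17. Its knockout arrays overlapped, at 11.62, 11.37 and 11.79 in controls and 11.77, 11.72 and 11.44 after IP, with an effect of 0.05 ± 0.17. The difference was 1.08 ± 0.24.

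Stx11, a syntaxin of granule secretion in leukocytes, rose in both genotypes, by 1.31 ± 0.21 in wild type and 2.53 ± 0.21 in knockout, with the knockout controls lowest at 6.25 to 6.76 and the knockout IP arrays highest at 8.86 to 9.44. Pcdh12, an endothelial protocadherin, fell from 8.72, 9.44 and 8.93 to 6.50, 6.48 and 5.45 in wild type. In the knockout it read 8.69, 8.62 and 9.12 in controls and 8.40, 7.66 and 7.18 after IP, a fall of -1.06 ± 0.32 that was lost under 15 alternative settings. The difference of 1.82 ± 0.46 is the second largest among these 12 genes, after 1.92 ± 0.44 for Nxph4, a secreted neurexophilin. Fam43a rose in the knockout by 1.16 ± 0.14 and had an effect of 0.22 ± 0.14 in wild type. Mavs, the mitochondrial adaptor of viral RNA sensing, fell in wild type by -1.33 ± 0.17 and stood at -0.23 ± 0.17 in the knockout. The other differences in this direction were 0.66 ± 0.13 for Rflnb, 0.65 ± 0.16 for Lgals9, which encodes galectin-9, 0.64 ± 0.15 for Lysmd3 and 0.58 ± 0.14 for the small GTPase Rras2.

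Of the 12 genes with a lower estimate in the knockout, all but Hlf rose in wild type. The rise was lost under 4 alternative settings for Pink1 and 3 for Nnt, quantile normalization and median centring among them for both, and under 1 for Hmgb1. Jund, a subunit of the AP-1 transcription factor, read 11.07, 11.23 and 11.42 in wild-type controls and 12.09, 12.39 and 12.11 after IP, a rise of 0.95 ± 0.13. Knockout controls at 11.89, 11.33 and 11.78 and IP arrays at 11.70, 11.73 and 11.82 overlapped, with an effect of 0.09 ± 0.13. Foxo3, a forkhead factor of stress resistance and atrophy, rose in wild type by 0.73 ± 0.15 and stood at -0.26 ± 0.15 in the knockout. Hmgb1, a chromatin protein that injured cells release, rose in wild type by 0.47 ± 0.09 and stood at -0.20 ± 0.09. The mitochondrial genes Nnt, a transhydrogenase, and Pink1, a kinase of mitophagy, differed by -0.48 ± 0.10 and -0.41 ± 0.09. Pygb, a glycogen phosphorylase, and Myom2, an M-band protein of the sarcomere, differed by -0.61 ± 0.13 and -0.56 ± 0.12.

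Clock genes gave the lowest difference of all genes, Dbp, and estimates on both sides of 0. All 19 listed genes were tested, and 13 had an unadjusted p below 0.05 against 7.87% of all genes, although none passed after adjustment. The IP effect was higher in the knockout for 4 of them (Clock, Arntl and Nfil3 among them) and lower for 9 (Dbp, Tef, Hlf, Per1, Per2, Per3, Cry2, Nr1d2 and Ciart). The list's median difference was -0.38, against -0.03 over all genes, with a median effect of 0.55 in wild type and 0.09 in knockout. The median was -0.24 without knockout IP array 1, -0.67 without wild-type control array 2, -0.70 with the 60th percentile filter and -0.69 with the Actb covariate. In wild type 7 clock genes rose and 1 fell, against 6.54% and 10.04% of all genes. In knockout 1 rose and 2 fell, against 4.82% and 7.32%. Apart from the wild-type rises these counts are near the shares. The list was chosen with results of these arrays known, so its count is not independent evidence.

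Dbp, whose product activates D-box genes, read 9.99, 11.23 and 9.24 in wild-type controls, 11.28, 11.30 and 13.51 in wild-type IP, 11.77, 12.71 and 10.96 in knockout controls and 9.68, 10.05 and 11.40 in knockout IP hearts. Wild-type IP arrays lay above their controls, the third far above, and knockout IP and control arrays overlapped. Its effects were 1.88 ± 0.62 and -1.43 ± 0.62, neither past the threshold, and the difference was -3.31 ± 0.88 (95% interval -5.19 to -1.43, limma adjusted p = 0.464). Between genotypes it stood at 1.66 ± 0.62 in controls and -1.65 ± 0.62 after IP, so that the difference in IP effect came in like amounts from both conditions. Tef and Hlf, the other PAR-bZIP factors, differed by -1.50 ± 0.32 and -1.43 ± 0.32. Tef rose in wild type by 1.01 ± 0.23, and Hlf fell in the knockout by -0.89 ± 0.23, from 9.83, 9.99 and 9.22 to 8.74, 8.75 and 8.89. The Hlf call was lost under 7 alternative settings and the Tef call under 1.

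Of the loop's repressors, the 3 Per genes, Cry2, Ciart and Nr1d2 also had lower estimates in the knockout, while Cry1 stood at 0.57 ± 0.34. Per2, measured on only 2 wild-type control arrays, read 6.69 and 5.69 in wild-type controls, 7.91, 8.35 and 9.53 after IP, 8.37, 9.22 and 6.29 in knockout controls and 6.94, 7.36 and 7.95 in knockout IP hearts. It rose in wild type by 2.41 ± 0.67, a call lost under 4 alternative settings, and its knockout groups overlapped with an effect of -0.54 ± 0.60. The difference was -2.95 ± 0.90 (limma adjusted p = 0.495). Per1, a cAMP-inducible repressor, read 8.96, 9.14 and 9.51 in wild-type controls, 9.64, 9.68 and 9.91 after IP, 9.73, 9.60 and 9.18 in knockout controls and 9.22, 9.42 and 9.37 in knockout IP hearts. Its difference was -0.70 ± 0.23, with a wild-type rise of 0.54 ± 0.16 that 9 alternative settings ended. Ciart, another repressor of the loop, rose in wild type by 3.08 ± 0.72, a call lost under 1 alternative setting, and stood at 0.43 ± 0.72 in the knockout, a difference of -2.65 ± 1.02. Cry2 differed by -1.07 ± 0.31, Per3 by -1.66 ± 0.56 and Nr1d2, a nuclear receptor that represses Arntl, by -0.73 ± 0.29, the last also on 2 wild-type control arrays.

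Arntl and Clock, the activators at E-boxes, had higher estimates in the knockout. Arntl read 9.75, 9.63 and 9.60 in wild-type controls, 8.66, 9.28 and 6.42 after IP, 7.92, 7.70 and 9.52 in knockout controls and 9.42, 9.20 and 8.20 in knockout IP hearts. Wild-type IP arrays lay below their controls, and the knockout groups overlapped. The effects were -1.54 ± 0.59 and 0.56 ± 0.59, neither past the threshold, and the difference was 2.10 ± 0.83. Clock fell in wild type by -0.67 ± 0.14, from 10.79, 10.64 and 10.65 to 10.08, 10.17 and 9.83, a call lost under 1 alternative setting, and its difference was 0.84 ± 0.20. Nfil3, a repressor at D-boxes and thus opposed to the PAR-bZIP factors, rose in the knockout by 2.00 ± 0.28 from controls of 8.60, 8.23 and 9.57, and differed by 1.24 ± 0.40. The 6 clock genes with a larger unadjusted p gave 0.86 ± 0.52 for Npas2, a paralog of Clock, the value above for Cry1, -0.22 ± 0.43 for Nr1d1, -0.23 ± 0.47 for Bhlhe41, -0.27 ± 0.14 for Rora, an activator of Arntl, and -0.38 ± 0.33 for Bhlhe40.

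Within groups, single arrays stood apart in these genes together. The third knockout control array read 9.52 for Arntl and 6.29 for Per2, against at most 7.92 and at least 8.37 on the other 2, and 5.58 for Ciart against at least 8.29. The third wild-type IP array read 6.42 for Arntl and 13.51 for Dbp, against at least 8.66 and at most 11.30. Without the third knockout control array the differences of Dbp, Per2, Ciart and Arntl were -3.74, -3.78, -3.58 and 2.67. Without the third wild-type IP array they were -2.57, -2.48, -2.12 and 1.25, and 11 of the 19 clock genes had an unadjusted p below 0.05 (4 higher, 7 lower) against 6.66% of all genes. The labels give no time of day for any heart, so clock phase and IP response cannot be told apart here. Besides the brightest probe set of each clock gene, 25 further probe sets of 10 clock genes were bright enough to be tested, and 22 had the sign of the brightest, among them all of those of Per2, Per3, Tef, Dbp and Hlf. Their sizes varied: Arntl had 0.39 ± 0.48, Clock 0.41 ± 0.40 and 0.13 ± 0.67, and Tef -0.76 ± 0.36 and -0.35 ± 0.80. All probe sets of Per2 ran from -3.15 to -1.67 and those of Dbp from -3.31 to -2.87. With probe sets averaged per gene, 1 clock gene was higher and 8 lower at an unadjusted p below 0.05.

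**Figure D3:**
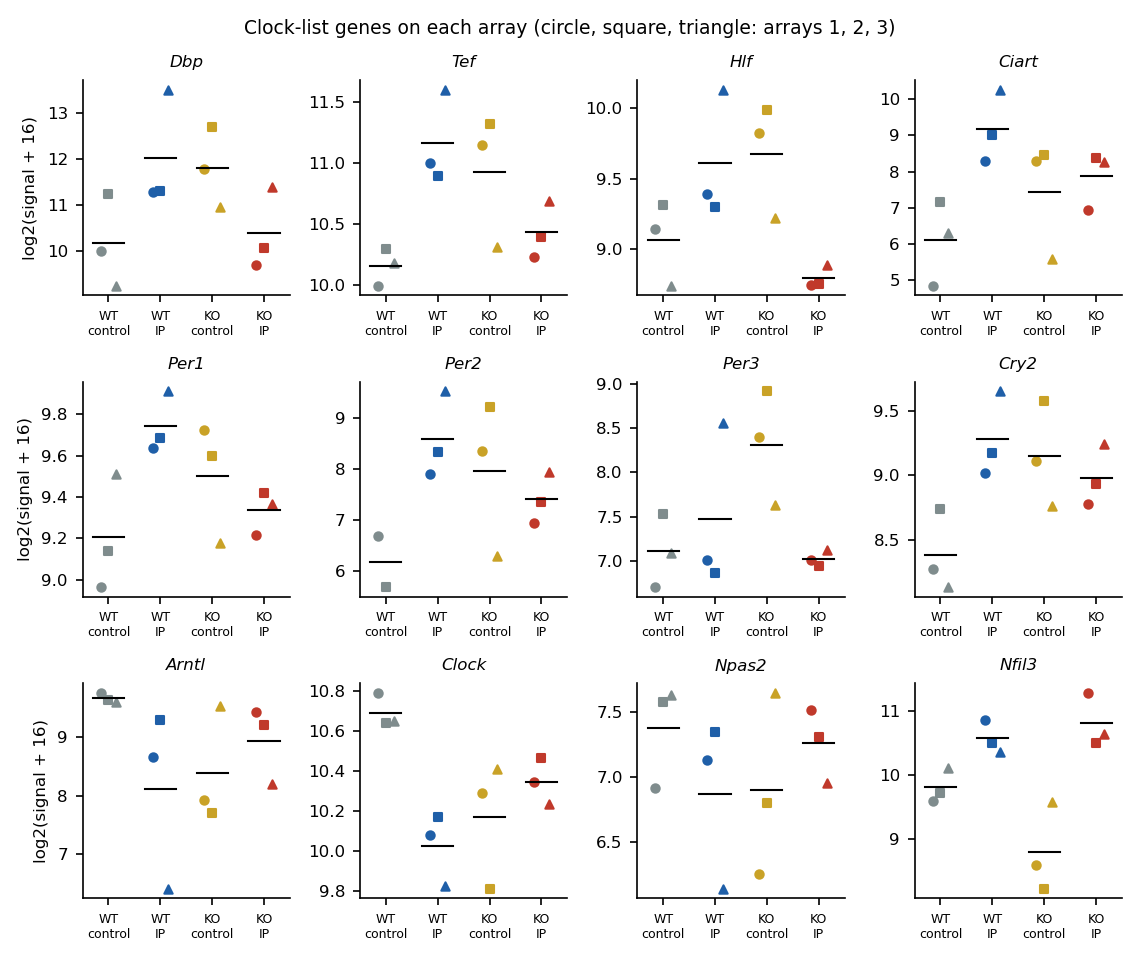
Each panel shows 1 clock-list gene, with log2(signal + 16) of every array on the y axis by group and the group mean as a bar. Circle, square and triangle are arrays 1, 2 and 3 of a group and do not pair samples. The third knockout control array (yellow triangle) and the third wild-type IP array (blue triangle) lie apart from their groups in Arntl, at 9.52 and 6.42, and in Ciart, at 5.58 and 10.26.

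Promoters of 4 clock-list genes are shown because they hold exact matches to the elements through which the clock and cAMP act. They are taken from RefSeq on GRCm38.p6, where 16 of the 19 clock genes have an entry, and run 5′ to 3′ on the gene's strand from 250 bases before the start to 50 after it. Ciart lies at chr3:95882179-95882478 (minus strand), Tef at chr15:81802423-81802722 (plus), Per3 at chr4:151044616-151044915 (minus) and Hlf at chr11:90390868-90391167 (minus). Capitals mark the E-box CACGTG bound by Clock and Arntl in Ciart and Tef, the D-box TTATGTAA bound by the PAR-bZIP factors in Per3, and the cAMP response element TGACGTCA in Hlf.
Ciart: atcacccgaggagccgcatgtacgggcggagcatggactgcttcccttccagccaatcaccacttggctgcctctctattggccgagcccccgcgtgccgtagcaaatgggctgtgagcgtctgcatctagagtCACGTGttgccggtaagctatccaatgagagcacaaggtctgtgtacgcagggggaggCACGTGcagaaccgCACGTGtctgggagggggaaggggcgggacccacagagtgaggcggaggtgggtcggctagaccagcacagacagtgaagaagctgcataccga
Tef: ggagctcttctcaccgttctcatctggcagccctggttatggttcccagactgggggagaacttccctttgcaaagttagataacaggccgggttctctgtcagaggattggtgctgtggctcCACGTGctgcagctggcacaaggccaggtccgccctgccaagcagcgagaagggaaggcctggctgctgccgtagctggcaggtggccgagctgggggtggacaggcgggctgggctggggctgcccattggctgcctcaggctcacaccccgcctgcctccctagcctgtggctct
Per3: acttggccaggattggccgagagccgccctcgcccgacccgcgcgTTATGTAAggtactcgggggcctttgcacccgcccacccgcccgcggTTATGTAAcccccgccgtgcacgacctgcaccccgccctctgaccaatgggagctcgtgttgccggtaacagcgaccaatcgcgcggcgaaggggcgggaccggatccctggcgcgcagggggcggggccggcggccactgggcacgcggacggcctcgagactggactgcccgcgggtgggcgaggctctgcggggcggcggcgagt
Hlf: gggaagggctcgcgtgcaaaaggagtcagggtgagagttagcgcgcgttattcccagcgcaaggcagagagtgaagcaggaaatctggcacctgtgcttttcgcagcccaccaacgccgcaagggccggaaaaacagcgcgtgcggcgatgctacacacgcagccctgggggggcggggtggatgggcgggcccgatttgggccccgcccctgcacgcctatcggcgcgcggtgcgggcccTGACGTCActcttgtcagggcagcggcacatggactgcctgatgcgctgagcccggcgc
Both strands were searched, and no marked matches overlap. Ciart holds 3 E-boxes, Tef 1, Per3 2 D-boxes and Hlf 1 cAMP response element. The E-box letters occur in 7.15% of all 32851 promoters and in those of 5 of the 16 clock genes (Bhlhe41, Ciart, Cry1, Per1 and Tef). The D-box letters occur in 0.938% and the cAMP response element in 1.79%, among clock genes only in Per3 and Hlf. Genes with the E-box letters thus had differences from -2.65 for Ciart to 0.57 for Cry1. A match describes these letters in this window and no site in use.

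Adora2b itself stood at a lower IP effect in the knockout. Its brightest probe set read 5.86, 6.44 and 6.46 in wild-type controls, 7.80, 7.50 and 7.42 after IP, 5.11, 6.09 and 6.30 in knockout controls and 6.09, 6.28 and 5.99 in knockout IP hearts. Wild-type IP arrays lay above every other array and the remaining groups overlapped. It rose in wild type by 1.32 ± 0.33, a call lost under 2 alternative settings, and stood at 0.29 ± 0.33 in the knockout, a difference of -1.03 ± 0.46. It is unknown whether this probe set targets the part of the gene that was deleted. The other receptors gave -0.71 ± 0.40 for Adora1 and -0.01 ± 0.37 for Adora2a, whose sign changed with the setting. Of 15 tested genes for adenosine receptors, production and clearance, Adora2b alone had an unadjusted p below 0.05, against 7.87% of all genes. With an offset of 1, median centring or the 60th percentile filter no gene of this list did. Nor did any without knockout IP array 1, wild-type IP array 1, wild-type IP array 3 or wild-type control array 1. The median difference was 0.03. It was -0.18 with probe sets averaged per gene, -0.09 without wild-type control array 3 and 0.12 after quantile normalization. Nt5e, which makes adenosine from AMP, stood at 0.41 ± 0.38, Entpd1 at 0.13 ± 0.29 and the adenosine kinase Adk at 0.03 ± 0.10.

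Among 18 cAMP targets and regulators 3 genes had a lower IP effect in the knockout at an unadjusted p below 0.05 and 1 a higher, against 4.61% and 3.26% of all genes. The median of -0.30 was -0.10 without wild-type control array 1, -0.18 without wild-type control array 2 and -0.05 with the Actb covariate. The lower ones were Per1, the orphan nuclear receptor Nr4a1 (-0.87 ± 0.34) and Ppargc1a, a coactivator of mitochondrial biogenesis (-0.43 ± 0.17). The higher one was Pde4b, a cAMP phosphodiesterase, which rose in wild type by 1.10 ± 0.16 and in knockout by 1.76 ± 0.16. The 30 immediate-early genes had the same median, -0.30, with 4 lower (Fosb -1.63 ± 0.70, Jund, Nr4a1 and Ier3 -0.71 ± 0.23) and none higher. That median was -0.14 without knockout control array 1, -0.08 with the Actb covariate and -0.45 with zeros kept. Of these genes 15 rose and 4 fell in wild type, against 6.54% and 10.04% of all genes. In knockout 12 rose and 3 fell, against 4.82% and 7.32%, so the falls are near their shares. The 16 glucocorticoid-induced genes had a median of -0.30. Of them 10 rose in wild type and 7 in knockout, against the same shares of rises. With 1 array left out their median ran from -0.49 without wild-type control array 3 to 0.10 without wild-type control array 2. Their median was also -0.19 without knockout control array 1 and -0.17 after quantile normalization.

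The interferon list had the highest median difference among lists of at least 5 genes, 0.50, and 13 of its 14 tested genes lay above 0. None passed, and 4 had an unadjusted p below 0.05, all higher, against 3.26% of all genes. Ifit1, an RNA-binding antiviral effector, read 8.46, 8.99 and 9.001 in wild-type controls, 9.20, 9.08 and 9.08 after IP, 8.13, 8.44 and 8.92 in knockout controls and 10.93, 9.82 and 9.38 in knockout IP hearts. The knockout IP arrays were the highest and the spread among them was wide. It rose in the knockout by 1.55 ± 0.30, stood at 0.30 ± 0.30 in wild type and differed by 1.25 ± 0.43. The other 3 were its paralog Ifit2 (1.17 ± 0.39), Usp18, which removes ISG15 (0.98 ± 0.36), and the antiviral enzyme gene Rsad2 (0.66 ± 0.30). Irf1 was the exception at -0.14 ± 0.22. The list's median stayed between 0.24 and 0.66 with any 1 array left out, and was 0.24 without knockout IP array 1 and 0.30 without knockout control array 1.

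Cytokine signalling genes and cytokines had medians of different sign, neither with a call and both dependent on single arrays. Of 30 genes of NF-kB and cytokine signalling 23 lay above 0, with a median of 0.24. At an unadjusted p below 0.05, 5 were higher and 2 lower. The shares over all genes, also for the lists that follow, were 3.26% and 4.61%. The 5 became 0 without an intensity trend or with zeros kept, and 1 without knockout IP array 1 or wild-type IP array 2. In each genotype 23 rose. The shares of all genes that rose, also for the lists that follow, were 6.54% in wild type and 4.82% in knockout. The list's median was 0.11 without wild-type control array 3 or knockout IP array 3, 0.14 without knockout control array 1, 0.15 without wild-type IP array 2, 0.13 with the 60th percentile filter and 0.47 with the Actb covariate. Socs3 read 9.02, 9.22 and 9.58 in wild-type controls, 13.20, 12.70 and 13.08 after IP, 8.37, 7.65 and 8.91 in knockout controls and 12.64, 13.34 and 12.86 in knockout IP hearts. The IP arrays of both genotypes lay together and the knockout controls lay below the wild-type controls, giving rises of 3.72 ± 0.26 and 4.64 ± 0.26. Bcl3 and Nfkbie, members of the I-kappa-B family, differed by 1.15 ± 0.47 and 1.35 ± 0.59, and Nfkbia of the same family by -0.55 ± 0.14. Among 25 neutrophil chemokines and cytokines the median was -0.35, with 3 lower (Osm -1.72 ± 0.68, Cxcl5 and Ccl6 -0.68 ± 0.25), none higher, and 19 risen in wild type against 17 in knockout. That median was -0.02 without knockout control array 3, -0.22 without knockout IP array 1, -0.55 without knockout IP array 3 and 0.09 with the Actb covariate. In the 12 leukocyte adhesion genes 3 were higher, namely the endothelial P-selectin gene Selp (1.25 ± 0.40), Vcam1 (0.94 ± 0.38) and Icam2 (0.44 ± 0.19), and the median was 0.20, with 0.10 to 0.41 when 1 array was left out (0.10 without wild-type IP array 2 or knockout IP array 3, 0.12 without wild-type control array 3, 0.41 without wild-type control array 1), 0.06 with probe sets averaged per gene and 0.31 with the Actb covariate. The authors' deposited table gives 0.11 for the probe set of Selp. Between genotypes Selp differed by -0.02 ± 0.28 after IP and by -1.26 ± 0.28 in controls. Its difference in IP effect thus came from the controls, where mean signals were low, at 82.3 units in wild type and 23.1 in knockout.

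Neutrophil markers rose in both genotypes. The list's mean lay between 6.65 and 8.30 in wild-type controls, 7.02 and 7.13 in knockout controls, 9.19 and 10.39 in wild-type IP and 9.02 and 9.999 in knockout IP hearts. Of 16 markers 11 were bright enough to be tested. In wild type 10 rose, against 6.54% of all genes, and in knockout 9 rose, against 4.82%. In whole tissue more cells of a type and more RNA per cell cannot be told apart. The median difference was -0.33 and became -1.07 once wild-type control array 3 was left out, whose list mean was the highest of the controls. It was 0.26 without wild-type control array 1, 0.04 without wild-type control array 2 and 0.03 without knockout IP array 2. With the Actb covariate the median was -0.07, so its sign is not settled. Trem1, a receptor that amplifies myeloid inflammation, differed by -1.75 ± 0.54, and Ngp, a granule protein gene of immature neutrophils, by 1.84 ± 0.55. The part of these cells in the chemokine and adhesion values was not tested.

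**Figure D4:**
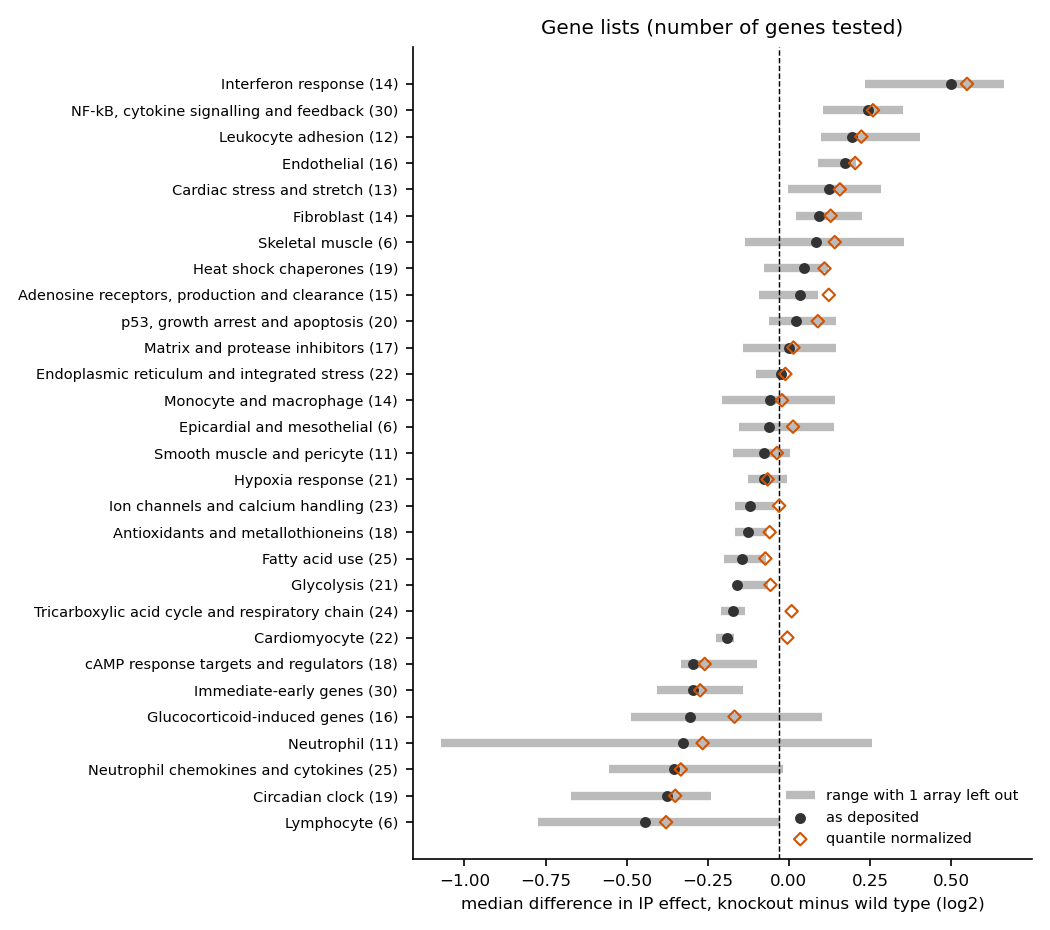
Black points give the median difference in IP effect of each gene list with at least 5 tested genes, in log2 units, open diamonds the same after quantile normalization, and grey bars the range with 1 array left out at a time. The dashed line is the median of all genes, -0.03. The interferon list lies highest at 0.50, the clock list at -0.38, and the cardiomyocyte and respiratory lists move from -0.19 and -0.17 to -0.005 and 0.01 after quantile normalization.

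Genes of the cardiomyocyte and of its energy supply had slightly lower IP effects in the knockout on the deposited scale. In the list of the tricarboxylic acid cycle and respiratory chain 22 of 24 genes lay below 0. In this list 11 genes had an unadjusted p below 0.05, all lower, against 4.61% of all genes. The median was -0.17. In wild type 7 genes rose, against 6.54% of all genes. In knockout none rose, against 4.82%, so the knockout count is near its share. Idh2, a mitochondrial isocitrate dehydrogenase, differed by -0.43 ± 0.10 and Cox6a2, a muscle subunit of cytochrome c oxidase, by -0.35 ± 0.10. The wild-type rise of Cox6a2 was lost under 12 alternative settings and that of Idh2 under 1. In the cardiomyocyte list 13 of 22 genes had a small unadjusted p, all lower, with a median of -0.19, among them the cardiac actin gene Actc1 (-0.29 ± 0.08). The troponin gene Tnnt2 read 15.84, 15.74 and 15.83 in wild-type controls, 15.99, 16.02 and 16.06 after IP, 15.80, 15.78 and 15.85 in knockout controls and 15.73, 15.79 and 15.85 in knockout IP hearts. Its wild-type IP arrays lay above all others, the other groups overlapped, and the difference was -0.24 ± 0.07. Fatty acid genes (median -0.14, 5 of 25 lower) and glycolytic genes (median -0.16, 4 of 21 lower) had none higher. The fatty acid median was -0.07 without wild-type control array 2, and the glycolytic median was -0.06, -0.07 and -0.10 without knockout IP array 1, wild-type IP array 3 and wild-type control array 2.

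These values moved with how the arrays were scaled. After quantile normalization the median of the respiratory list was 0.01 with 1 gene lower, and that of the cardiomyocyte list was -0.005 with 1 lower. The fatty acid list then had a median of -0.07 with 2 lower and 1 higher, and the glycolytic list one of -0.06 with none lower. Tnnt2 stood at -0.02 and Idh2 at -0.28. With median centring the respiratory median was -0.11 with 3 lower and the cardiomyocyte median -0.13 with 1 lower. The fatty acid and glycolytic medians were then -0.08 and -0.12. With the Actb covariate the respiratory median was -0.16 with 3 lower and the cardiomyocyte median -0.15 with 5 lower. Without an intensity trend, a setting that cannot change an estimate, these 2 medians stayed at -0.17 and -0.19, with 4 and 2 genes lower. With all genes in 10 bins of equal size by mean level, 151 were lower and 35 higher at an unadjusted p below 0.05 in the brightest bin, and 74 were lower and 78 higher in the next. The total signal was highest on the wild-type IP arrays, at 37287858 to 37455385 units against at most 36540277 elsewhere. The Actb 3 prime to 5 prime log2 ratio, a measure of RNA integrity and labelling, was 0.84 to 0.95 on knockout IP arrays and 1.22 to 1.39 on wild-type IP arrays. It was 1.05 to 1.31 and 0.88 to 1.40 on wild-type and knockout control arrays. Apart from the fit with that ratio as a covariate, their part in these lists was not tested.

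**Figure D5:**
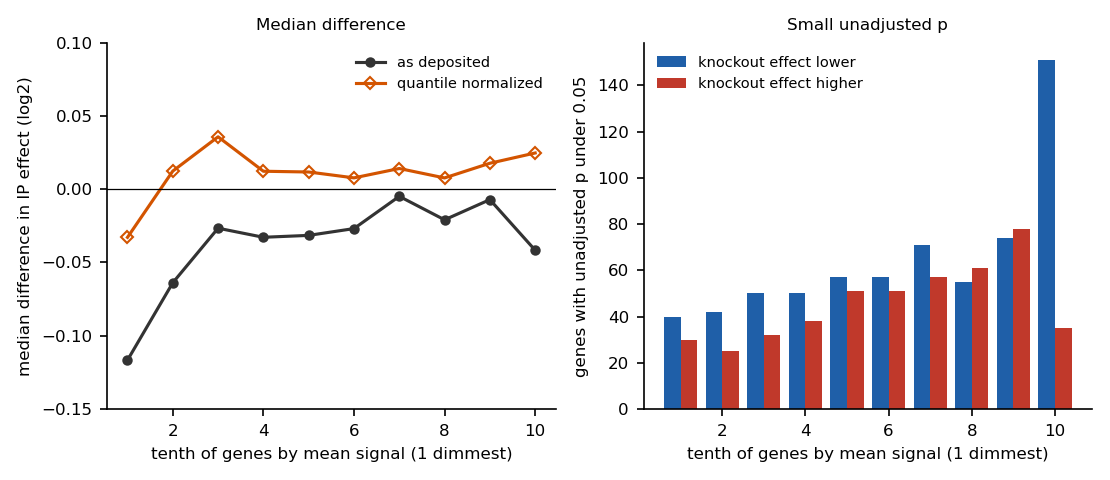
Genes are split into 10 bins of equal size by mean signal, from dimmest to brightest on the x axis. The left panel gives the median difference in IP effect in log2 units on the deposited scale and after quantile normalization, and the right panel the number of genes with an unadjusted p under 0.05 in each direction, with 151 lower and 35 higher in the brightest bin.

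The hypoxia list was mixed. Of 21 genes 3 were higher and 3 lower at an unadjusted p below 0.05, against 3.26% and 4.61% of all genes. The median was -0.08. The higher ones were Egln3, P4ha1, a collagen prolyl hydroxylase (0.72 ± 0.28), and Ndrg1 (0.39 ± 0.15). The lower ones were Epas1, which encodes hypoxia-inducible factor 2 alpha (-0.24 ± 0.08), Egln2, another prolyl hydroxylase of these factors (-0.41 ± 0.15), and Adm, the vasodilator adrenomedullin (-0.54 ± 0.25). Hif1a stood at 0.29 ± 0.19. Other defence and remodelling genes differed as singles: Hspa4l, a heat shock chaperone, by 0.60 ± 0.18, the heme oxygenase Hmox1 by -1.36 ± 0.68, Timp3, an inhibitor of matrix proteases, by -0.94 ± 0.28, and Plat, a plasminogen activator, by 0.51 ± 0.14. The lists for heat shock, endoplasmic reticulum stress, p53 and growth arrest, and matrix had medians between -0.02 and 0.05. Endothelial genes had a median of 0.17 and fibroblast genes of 0.09.

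The authors' deposited table names 30 probe sets for this contrast, 15 higher and 15 lower, each with a size of at least 1.01 log2 units. All 30 had the same direction here, 23 had an unadjusted p below 0.05 and none passed after adjustment over the 27022 probe sets tested singly (smallest adjusted p 0.409 in limma). Of its 379 probe sets with a decision other than 0, 360 were bright enough to be tested here, 351 of them had the same direction and 166 an unadjusted p below 0.05. The authors' choice was made on the same contrast of these same arrays, so shared directions and small p-values are not independent evidence. The probe sets described above for Adora2b, Egln3, Acta1, Per1 and Hlf are among the 30. For Per2 and Tef the 30 hold other probe sets than those described, with -1.67 ± 0.49 and -1.85 ± 0.48 for Per2 and -0.76 ± 0.36 for Tef.

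Ramp1, which pairs with receptors for calcitonin gene-related peptide, was 1 of 16 genes that differed between genotypes after IP (limma, -1.16 ± 0.16, adjusted p = 0.00978). It rose in wild type by 0.96 ± 0.18 on 2 control arrays, a call lost under 2 alternative settings, and its difference was -0.86 ± 0.24. Wee1, a cell cycle kinase under clock control, differed by -1.38 ± 0.40 and Nmb, which encodes neuromedin B, by -0.83 ± 0.27, while Prdm1, a transcriptional repressor, differed by 1.28 ± 0.49 and Rtp4, an interferon-induced gene, by 0.64 ± 0.30. For Rcan1, Gja1, Uck2 and Fkbp5, among others, the brightest probe set is not the one that the authors' deposited table names. Rcan1, an inhibitor of calcineurin, had 0.36 ± 0.22 on its brightest and 0.99 ± 0.23 on the named probe set, and Gja1, the ventricular gap junction gene, 0.14 ± 0.16 and 1.14 ± 0.28. Uck2 and Fkbp5 had 0.28 ± 0.30 and -0.06 ± 0.45 on their brightest probe sets and -1.03 ± 0.64 and -1.20 ± 0.85 on the named ones.

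In control hearts 5 genes differed between genotypes, all lower in the knockout, and all 5 were among the 16 after IP. These are Pttg1, Cyfip2, Rab4a, Mrpl55 and 2610507I01Rik, named after their values were seen. Their control differences ran from -0.79 ± 0.10 for Mrpl55 to -3.81 ± 0.08 for Pttg1. The difference in IP effect of Pttg1 was -0.28, of Cyfip2 -0.47, of Rab4a 0.06, of Mrpl55 0.20 and of 2610507I01Rik 0.25, none past the threshold. The authors' deposited table lists 2610507I01Rik as higher in the contrast of IP effects, at 1.01 and 1.18 on 2 probe sets. Of the 16 genes after IP 4 were higher and 12 lower in the knockout, and with median centring 12 were higher and 6 lower.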

How the data were processed

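RNA was measured on 12 single-channel Affymetrix mouse arrays. Signal intensities, linear and 1 per probe set, were made by the authors with MAS5 according to the submitters' processing notes, and the scaling target is unknown. The authors' deposited table holds, per the file headers, log2 differences, a p-value and a decision score of -1, 0 or 1 for each contrast. The sources used here do not give its summarization or genome build.

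Groups came from the sample labels. Signals were transformed to log2(signal + 16) after an unbroken run of 1425 zeros on the third wild-type control array (median 639 for these probe sets on the other arrays) was set as missing, and the 64 control probe sets were left out. Probe sets above the 40th percentile of mean level (27022 of 45037) were kept, and each gene is its brightest probe set among those with exactly 1 symbol (40137; 1232 have several and 3668 none), with symbols updated through an NCBI RefSeq table (36287 matched, 7947 changed). Of 14044 genes 13192 have all 12 arrays. A mean per group was fitted with limma 3.58.1 in R 4.3.3 (empirical Bayes with an intensity trend, 8 residual degrees of freedom, two-sided tests, Benjamini-Hochberg over all genes, threshold 0.05). The fit was tested on simulated data. The number of arrays limits the precision.

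Named are the 12 smallest p in each direction, genes of the authors' 30 probe sets, each list's 2 smallest p, adenosine receptors, the clock list and the 5 largest rises and falls of the mean IP effect; unnamed loci (RIKEN, Gm, LOC) were skipped. Some genes that this rule names are not reported here. Further list members with a small unadjusted p are named as such. The 32 lists (580 entries, 516 tested) and all comparisons were chosen with earlier results of these data known. Alternatives were offsets of 1 and 64, quantile normalization, median centring, no filter and the 60th percentile, no trend, array weights, robust moderation, all probe sets averaged or tested singly, zeros kept, a replicate block, the Actb ratio as covariate, and each array left out.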

Additional observations from a re-analysis of the deposited data

How the results depend on the processing

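The count of genes past the threshold for the difference in IP effect was 0 in 25 of 26 alternatives and 2 with the Actb 3 prime to 5 prime covariate. With 1 array left out it was 0 each time, and the counts were 1420 to 2351 for the IP effect in wild type, 948 to 1704 in knockout, 5 to 9 for the genotype in control hearts and 5 to 39 in IP hearts. Without knockout IP arrays 1, 2 and 3 the last count was 6, 6 and 9, without wild-type IP arrays 1, 2 and 3 it was 7, 8 and 5, and without knockout control array 3 or wild-type control array 3 it was 26 and 39. The control count was 9 without knockout control array 3 and without wild-type control array 1. The lowest wild-type count was without wild-type IP array 1 (1420), and the knockout count fell by over 1.5 times without knockout IP array 3 (948) and knockout control array 3 (1097). With the covariate the knockout count was 1088 and the count in IP hearts 3. In IP hearts it was also 4 without an intensity trend, 6 with zeros kept, 45 with array weights and 88 with every probe set, which gave 13 in controls. The cause was not tested, except that every probe set tests more features. Same-numbered arrays did not deviate together (correlations of deviations from -0.0558 to 0.0761 over 18 pairs), so the numbers were not taken as pairing. With the replicate block the counts were 0, 2188, 1537, 6 and 20. Of 3108 values of 120 named genes under alternatives 27 in 12 genes changed sign. Many of these values could not change sign. The filters, no trend, robust moderation and probe sets tested singly leave a gene's estimate as it is. For Adora2a these were 0.0435 (quantile), 0.0523 (centring), 0.0112 (weights), 0.141 (covariate) and, with 1 array left out, -0.227 to 0.191; for Fkbp5 0.00357 (centring) and -0.472 to 0.371; for Nppa -0.0254 to 0.394; for Nr1d1 -0.454 to 0.238; for Bhlhe41 -0.511 to 0.0683; for Lipe -0.259 to 0.00688. Zeros kept as values gave -2.27 for Rsrp1 and -2.19 for Rcan1, quantile normalization 0.0518 for Pln and 0.0275 for Ckm, the covariate 0.188 for Il6 and the mean of all probe sets -0.0488 for Uck2.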
